A study of Mus musculus with 38 samples.

Results

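Many mRNAs of the mouse have a 5′ untranslated region (UTR) that is spliced together from several exons, so that exons lie wholly upstream of the exon with the start codon. The data described here are the ribosome footprints in such exons, in primary mouse cortical neurons at rest, after depolarization with KCl, after the glutamate receptor agonist DHPG and after knockdown of the initiation factor eIF4G2. The exons were chosen by position alone: a 5′ UTR segment of a gene's longest coding transcript was kept where it did not touch a coding sequence (CDS) segment of that transcript and overlapped no CDS segment on the same strand. This gave 10882 upstream exons in 8214 genes, out of 32278 5′ UTR segments in 20904 genes. Of the other segments, 20708 abut the CDS and 688 overlap a CDS on the same strand.

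The libraries came from PL-Ribo-seq, in which the biotin ligase TurboID labels its neighbourhood, complexes with the label are bound to streptavidin, and the mRNA stretches covered by their ribosomes are sequenced. All neurons were cultured from cortex of CD-1 mouse embryos and carried a doxycycline-inducible lentiviral TurboID, either TurboID-PSD95, which elements of the PSD95 transcript carry to dendrites, or Pan-TurboID, without a localization signal. All were given biotin for 30 min according to the labels (the methods give a shorter time for DHPG) and cycloheximide for 2 min, which the methods place before the biotin. Each culture gave an input (all monosome footprints) and a pulldown (footprints of biotinylated complexes). In the KCl experiment, 24 libraries formed 8 groups of 3: input and pulldown of both baits, from resting neurons (REST) and from neurons silenced for 2 h with TTX and AP5 and depolarized with 55 mM KCl for 1 h (DEP). Per the methods, the KCl medium was then replaced for 30 min by fresh medium with biotin, TTX and AP5 before harvest. The labels give no silencing for REST, so silencing and KCl cannot be told apart, and changes with KCl stand for both. The DHPG experiment had 3 inputs and 3 pulldowns of TurboID-PSD95 neurons, silenced in the same way and given DHPG, which activates group I metabotropic glutamate receptors, at 100 µM for 10 min. In the knockdown experiment, TurboID-PSD95 neurons received 20 nM siRNA against eIF4G2 for 72 h and were left at rest or depolarized as above, with 2 libraries in each of 4 groups. Each library pooled several dishes, and the 38 libraries in 14 groups held between 5906281 and 35643247 counts, of which the CDSs used here held between 2048604 and 14646402 and the upstream exons between 33555 and 750764.

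Initiating ribosomes usually load at the 5′ end of an mRNA and scan to the start codon, so footprints ahead of it mark ribosomes that began at upstream AUG or near-cognate codons, or ribosomes that were still scanning when the method retains them. Translation of an upstream open reading frame (uORF) mostly lowers initiation at the main start codon. A classic exception is Atf4, the transcription factor of the integrated stress response, whose uORFs let its CDS be translated when initiator tRNA delivery is limited. eIF4G2 (DAP5) is a relative of eIF4G that lacks the part that binds the cap-binding protein.

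Upstream exons were short, with a median of 136.5 nt and a middle range of 85 to 230 nt, and 8162 of them were exon 1. Their 3′ ends lay a median of 54 nt of mRNA before the start codon. Per the file headers, the 5′ ends of reads were counted without an offset, and 3963 upstream exons ended within 30 nt of the start codon, where ribosomes on the first codons can add counts. The other 6919 lay farther off. An ATG was found in 6777 (62.3%) of the 10873 with a genome sequence. Of the 19545 ATGs, 18191 (93.1%) opened a frame that ended within the 5′ UTR, with a median of 12 codons before the stop, 1125 opened a frame that ran into the CDS out of frame, and 229 were in frame with it. For 19168 ATGs the base 3 before lay in the same exon. It was A or G, as the Kozak context has it, for 53.4% of these, and a G also followed the ATG for 15.4%.

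Some of the upstream exons that carry the results below are shown here by 30-base windows around ATGs, which are in capitals, as read from the mm10 genome in the 5′ to 3′ direction of the transcript. Atf4 shows a chain of uORFs, of 36 codons, of 3 codons and of 59 codons that run into the CDS. In Nr4a2, 2 ATGs stand 4 bases apart. The frames of Maff (95 codons) and Sik1 (47 codons) run into the CDS, and those of the others shown end in the 5′ UTR.
Atf4, first, chr15:80255291-80255320 (+): cacttttctctcATGgggcctttaggacga
Atf4, second, chr15:80255570-80255599 (+): cttgcggccaccATGgcgtattagaggcag
Atf4, last, chr15:80255656-80255685 (+): gcggcaacccccaccggcctaagccATGgc
Nr4a2, first, chr2:57114950-57114979 (-): gactttaggtgcATGttggcagcagcagct
Nr4a2, other two, chr2:57114721-57114750 (-): cggcggagttgaATGaATGaagagagcgga
Nr4a3, first, chr4:48045153-48045182 (+): ataaATGacgtgccgagagagcgagcgaac
Tiparp, chr3:65528485-65528514 (+): caggtccgcggaATGgcccgcgcgccgctc
Maff, chr15:79347520-79347549 (+): aATGaaaggaatcctgtgcgtgagtaattc
Atf3, chr1:191183254-191183283 (-): ttaaaaggggtgATGcaacgcgctcccagc
Sik1, chr17:31855775-31855804 (-): ggggcgctgacATGcggcgaggcccgggcg
Rsrp1, chr4:134923592-134923621 (+): agtattttcgATGctgacgtcgccactaag
Basp1, chr15:25413735-25413764 (-): aaATGcagaggctgcagcggcggcggcagt
Gnb1, chr4:155491373-155491402 (+): gcgcccatcctgATGgctggaggcgtctga
Of the other exons called with KCl, those of Dusp14, Arl4d, Crem and Slc7a1 hold no ATG, and those of Elmsan1, Bahcc1, Sertad1 and Trim66 hold ATGs that are not shown.

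Levels are given as a density, counts per kilobase of exon and per 1000000 CDS counts of the library. Of the 10882 upstream exons, 4430 (40.7%) had no count in any library, 3023 had a mean of at least 10 counts per library and 675 a mean of at least 100. A library held a count in 2537 to 5347 of them, and the 20 richest exons took 7.63% to 11.4% of a library's upstream counts. The densest exon, with a mean density of 2855 over the 38 libraries, was exon 1 of Basp1 (chr15:25413552-25413764), which encodes a membrane protein of growth cones. Next came exon 2 of Hmgcs1, an enzyme of cholesterol synthesis, exon 1 of Kif1a, an axonal kinesin motor, with 2175, and exon 1 of the G-protein subunit genes Gng3 (1718) and Gnb1 (1529). In all inputs and pulldowns of the DHPG and knockdown experiments the exon of Hmgcs1 was denser than that of Basp1. Exons were also grouped by the distance from their 3′ end to the start codon. Median densities of input libraries were 41.3 for exons that ended under 30 nt from it, 38.6 for those that ended 30 to 99 nt from it, 28.2 for those from 100 nt up to 300 nt and 18.02 for those farther off. In pulldowns the same classes had 11.3, 10.7, 8.15 and 5.48. In some genes the upstream exons outweighed the CDS. Exon 1 of Ptp4a2, a tyrosine phosphatase gene, took 93.9% of the counts of its upstream exons and CDS together, and exon 1 of the cyclin gene Ccni took 91.5%.

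Footprints in upstream exons were scarcer in pulldowns than in inputs, relative to the CDS. Inputs held 47.5 to 103 upstream counts per 1000 CDS counts (median 69.9, 19 libraries) and pulldowns 14.1 to 62.5 (median 19.5, 19 libraries). In each of 19 pairs of input and pulldown from the same monosome fraction, the pulldown was lower, by 1.64 to 4.81 times (median 2.91). Over the 12 pairs of the KCl experiment the pulldown share was 0.359 times that of the input, with p = 0.000488, the smallest that an exact two-sided sign-flip permutation test gives for 12 pairs, and p = 0.00244 after Benjamini-Hochberg adjustment over 5 tests of this share. This test takes the 12 pairs as independent, although they come from 3 replicate numbers whose samples were processed together. With 3 independent units the same test could not give a p under 0.25. Resting TurboID-PSD95 inputs had 52.9, 78.4 and 69.9 per 1000, and their pulldowns 17.0, 31.9 and 19.5. Depolarized TurboID-PSD95 inputs had 78.5, 103 and 85.3, and their pulldowns 16.3, 62.5 and 31.4, where replicate 2 stood far above the other pulldowns. DHPG inputs had 54.9, 50.5 and 50.5 and DHPG pulldowns 14.1, 15.6 and 19.5 (0.312 times, exact sign-flip p = 0.25, the smallest that 3 pairs allow). Knockdown inputs ran from 47.5 to 72.3 and knockdown pulldowns from 16.4 to 19.9.

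**Figure D1:**
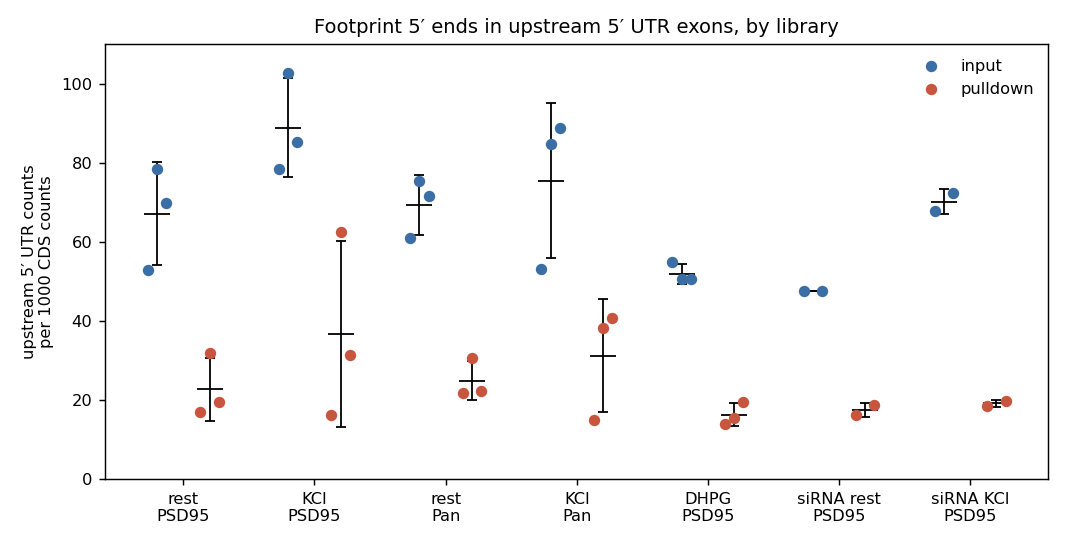
Counts in upstream 5′ UTR exons per 1000 CDS counts (vertical axis) for each of the 38 libraries, in the 14 groups along the horizontal axis. Points are libraries, lines are group means and bars are SDs, and each pulldown group lies below its input group. Replicate 2 of the depolarized TurboID-PSD95 pulldowns, at 62.5, reaches the level of some inputs of other groups.

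The whole 5′ UTR took part in this difference, and the 3′ UTR did not share its direction. Segments that abut the start codon held 131 to 269 counts per 1000 CDS counts in inputs and 33.8 to 163 in pulldowns. Relative to these abutting segments, upstream exons were 1.05 times as frequent in pulldowns as in inputs, in 12 of 12 pairs of the KCl experiment (exact sign-flip permutation p = 0.000488). Counts in 3′ UTRs ran from 19.8 to 27.9 per 1000 CDS counts in inputs and from 23.3 to 79.6 in pulldowns, 1.35 times higher in the KCl pairs. These counts were not divided by mRNA levels, so that more mRNA and more ribosomes per mRNA cannot be told apart, nor can fewer cells of a type and less RNA per cell.

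The lower level in pulldowns was spread over most exons. In resting neurons, TurboID-PSD95 pulldowns were set against the mean of both resting inputs, as the study defines dendritic translation. By edgeR's quasi-likelihood test at a false discovery rate of 0.05, 1886 of 3716 upstream exons tested were lower and 2 were higher, beside 53.4% of all 5′ UTR segments called lower, 0.113% called higher and 53.5% in either direction. The median change was -1.53 on the log2 scale. For Pan-TurboID, resting and depolarized pulldowns were averaged and set against the Pan-TurboID inputs of both states, so its counts are not like those at rest. There 2380 upstream exons were lower and 2 higher (66.5% of all segments called lower and 0.0965% higher, 66.6% in all), with a median of -1.31. In DHPG-treated neurons, 2714 of 2987 were lower and 23 higher (94% of all segments called lower and 0.603% higher, 94.6% in all), with a median of -1.44. After KCl the median was -1.07 and no upstream exon passed (0.00805% of all segments called), although 1381 had an unadjusted p under 0.05, DESeq2 called 1109 and edgeR's likelihood ratio test 843. The counts of the DHPG experiment were 2601 to 2792 when a replicate was left out, and those of the KCl experiment moved more. With same-numbered libraries as a block, which follows the shared processing of a replicate, 1434 passed after KCl, and without replicate 2 of the depolarized TurboID-PSD95 pulldowns 1749 passed with a median of -1.74. Without that library 2050 passed at rest and 2545 with Pan-TurboID. Without all libraries of replicate 3, no exon passed at rest or with Pan-TurboID, with medians of -1.40 and -1.33.

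Upstream exons were lower by similar amounts whether the CDS of the gene was higher or lower in the pulldown. In the DHPG experiment, upstream exons had a median change of -1.42 where the CDS was higher (1366 exons), -1.49 where it was lower (1130 exons) and -1.40 where it was not called (461 exons). In resting TurboID-PSD95 neurons the medians were -1.55 with the CDS higher (738 exons) and -1.55 with it lower (533 exons). Sv2a, a glycoprotein of synaptic vesicles, is such a case. Its exon 1 had densities of 318, 635 and 566 in resting TurboID-PSD95 inputs and 49.3, 168 and 76.6 in the pulldowns. Neither group reached the other, the exon was lower by 2.53 log2 units against the mean of both inputs (SE 0.514, edgeR adjusted p = 0.00243), and its CDS was higher by 1.14. Among 17 upstream exons tested of postsynaptic density protein genes, 16 were lower in the DHPG pulldown, beside the 94% of all segments, and of 18 CDSs of these genes 14 were higher and 1 lower, beside 4967 higher and 4821 lower of 12273 CDSs tested. Among ribosomal protein genes, whose CDSs were lower in 26 of 26 cases, 11 of 14 upstream exons were lower and 1 was higher, beside the same 94%.

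**Figure D2:**
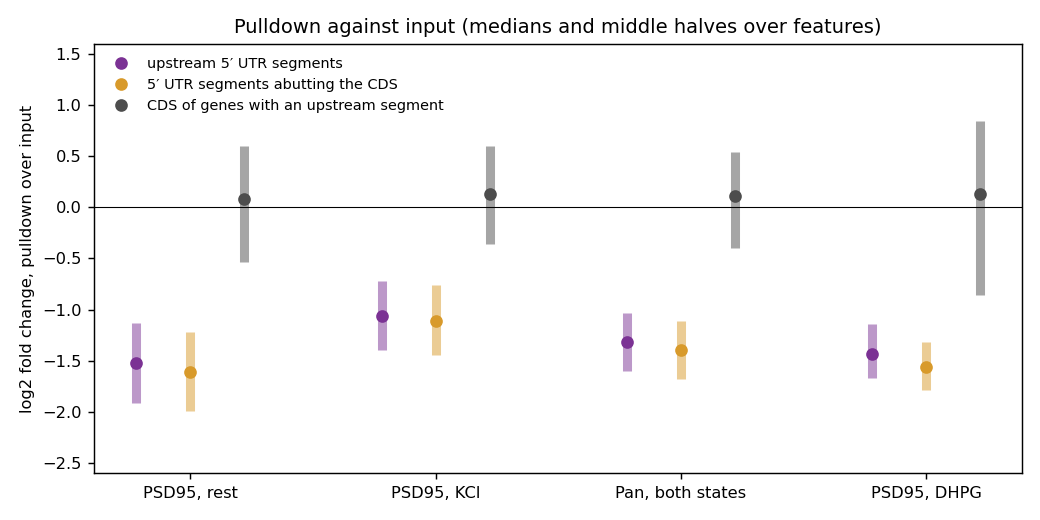
Log2 fold change of pulldown over input (vertical axis) in 4 comparisons, for upstream exons, 5′ UTR segments that abut the CDS, and CDSs, each scaled to the CDS total. Points are medians over features and bars span the middle 50% of features, and the medians of upstream exons lie between -1.07 and -1.53, close to those of abutting segments and below those of CDSs.

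Some upstream exons stood apart from this in part of the comparisons. Exon 1 of Rsrp1, an arginine- and serine-rich protein, had densities of 148, 208 and 182 in resting TurboID-PSD95 inputs and 200, 308 and 130 in their pulldowns, and the groups overlapped (log2 change 0.08, edgeR adjusted p = 0.867). In the DHPG experiment its inputs had 255, 219 and 199 and its pulldowns 201, 193 and 225. The groups overlapped and the exon was not called (edgeR adjusted p = 0.648). After KCl the exon of Rsrp1 was lower in pulldowns, like most. Its raw counts in depolarized TurboID-PSD95 libraries were 269, 612 and 1022 in inputs and 93, 496 and 146 in pulldowns. Relative to the CDS totals of these libraries, each pulldown was below its input. Exon 2 of Peg3, an imprinted zinc-finger gene, went the other way. Its densities were 2.71, 4.49 and 6.11 in resting TurboID-PSD95 inputs and 82.2, 31.9 and 68.9 in pulldowns, higher by 3.38 log2 units (edgeR adjusted p = 0.00321), and in the DHPG experiment it rose from 12.2, 18.3 and 9.52 in inputs to 43.4, 49.5 and 67.4 in pulldowns. This exon has few counts, with a mean of 16 per library, and overlaps another gene, whose reads cannot be told apart from its own.

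In the dendritic pulldown, KCl raised footprints in 6 upstream exons and lowered none. They were exon 3 of Dusp14, a phosphatase that acts on MAP kinase signalling, and exon 1 of Elmsan1, an ELM2 and SANT domain protein of a histone deacetylase complex, of Arl4d, a small GTPase of the ARF family, of Maff, a small Maf transcription factor, of Bahcc1, a BAH domain protein of chromatin, and of Crem, a cAMP-responsive transcription factor. The 6 were among 3716 upstream exons tested with edgeR's quasi-likelihood test, beside 0.241% of all 5′ UTR segments called, and 506 had an unadjusted p under 0.05. Their gain ran from 2.49 to 5.38 log2 units, where the 5.38 of Crem rests on resting counts of 0, 0 and 1. All 6 ended at least 30 nt before the start codon, as did 2355 of the 3716 tested. In each the CDS of the gene also rose, by 1.13 to 1.82.

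Exon 3 of Dusp14 (chr11:84050832-84050920) had densities of 12.6, 35.2 and 5.48 in resting TurboID-PSD95 pulldowns and 109, 319 and 232 in depolarized ones. The groups did not overlap, and the difference was 11.6-fold (log2 3.54, SE 0.659, edgeR adjusted p = 0.000619). Its resting pulldowns held only 8, 15 and 1 counts, so the size of the fold is uncertain. In the matching inputs the same exon went from 48.3, 87.9 and 58.4 to 201, 363 and 412.

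Exon 1 of Elmsan1 (chr12:84193499-84194015) went from 6.76, 9.29 and 4.72 in resting pulldowns to 25.4, 81.8 and 38.7 after KCl, which was 6.91-fold (log2 2.79, SE 0.575, edgeR adjusted p = 0.00437). For Arl4d (chr11:101665541-101665637), densities of 5.76, 10.8 and 10.1 became 40.1, 138 and 106, or 11.3-fold (log2 3.50, SE 0.742, edgeR adjusted p = 0.00686). Behind this fold were only 4, 5 and 2 counts at rest and 8, 98 and 34 after KCl, so its size is uncertain. Maff (chr15:79347520-79347754) had 26.2, 24.0 and 27.0 at rest and 55.9, 237 and 134 after KCl, or 5.63-fold (log2 2.49, SE 0.560, edgeR adjusted p = 0.0125). In these exons every depolarized pulldown lay above every resting pulldown, and replicate 2 was the highest of the depolarized ones.

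Bahcc1 (chr11:120232947-120233107) had 13.0, 13.0 and 6.06 at rest, from 15, 10 and 2 counts, and 30.2, 122 and 97.9 after KCl (log2 2.91, SE 0.673, edgeR adjusted p = 0.0189). The exon of Crem had 0, 0 and 1 counts at rest and 12, 28 and 9 after KCl (edgeR adjusted p = 0.0307), so that its fold is poorly determined, and it overlaps another gene. The 6 calls depended on few libraries. Without replicate 2 of the depolarized TurboID-PSD95 pulldowns only that of Dusp14 was left, without replicate 3 none was, and without replicate 1 there were 93. With same-numbered libraries as a block, 56 upstream exons passed.

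Over all upstream exons, the median change with KCl in the dendritic pulldown was 0.67 log2 units, and 5′ UTR segments that abut the CDS had the same median of 0.67. The CDSs of the same genes had a median of -0.03, which the scaling to CDS counts holds near 0. The median of upstream exons was 0.00 without replicate 2 of the depolarized pulldowns alone, and 0.35 without all libraries of replicate 2. The share of upstream counts differed 1.44-fold between the groups, with 1 of 3 depolarized libraries above all resting ones (exact permutation p = 0.7, where 3 against 3 libraries cannot give less than 0.1), and the log2 difference of 0.53 became 0.31 to 0.83 when a replicate was left out. No upstream exon passed when the KCl response of the dendritic pulldown was set against that of the inputs (0% of all segments called). In this test of the difference 147 had an unadjusted p under 0.05, and neither edgeR's likelihood ratio test nor DESeq2 called any. For Dusp14 the pulldown gained 1.48 log2 units more than the inputs (SE 0.746, edgeR adjusted p = 0.985), and for Arl4d 1.78 more (SE 0.840, edgeR adjusted p = 0.985).

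**Figure D3:**
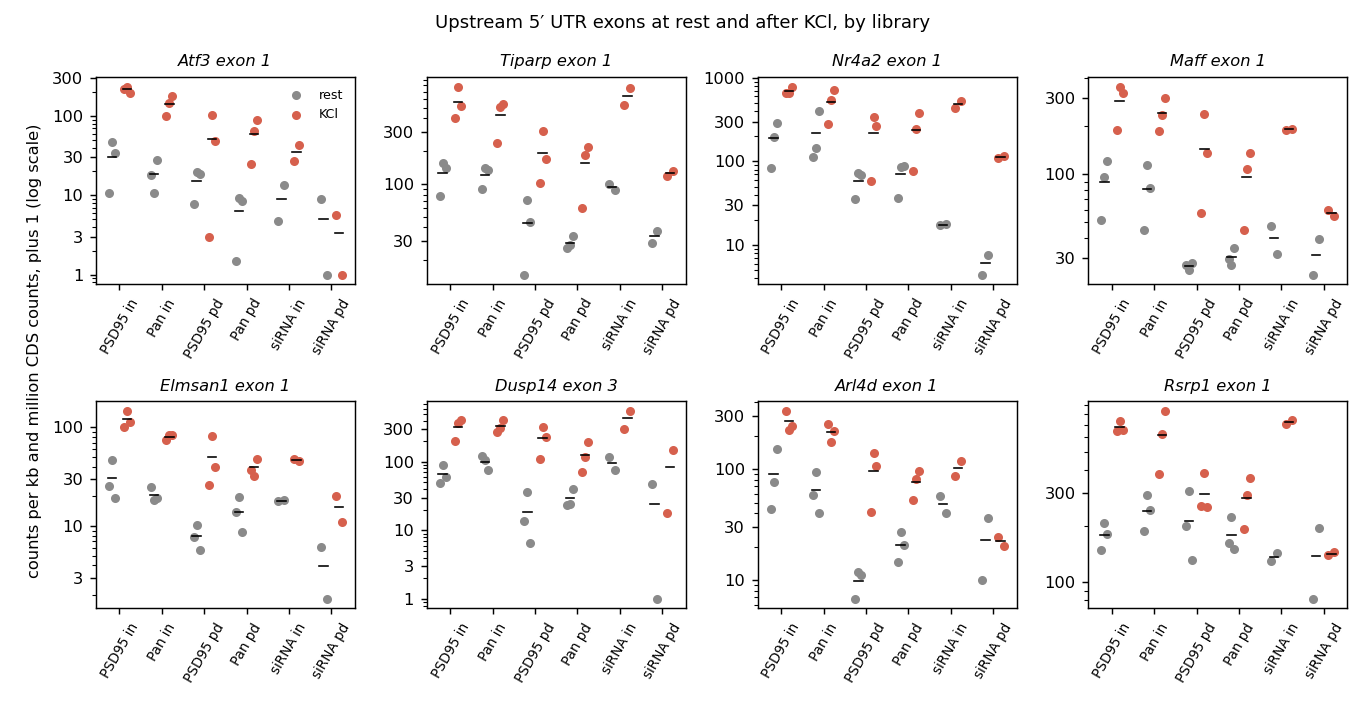
Density (counts per kilobase and per 1000000 CDS counts, plus 1, log axis) of 8 upstream exons in each resting and depolarized library of the KCl and knockdown experiments, by bait and by input or pulldown. Each point is a library and each line a group mean, and without knockdown the depolarized inputs lie above the resting inputs in each panel except that of Nr4a2, where the groups overlap.

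In whole neurons, measured by the inputs of both baits, 12 upstream exons rose with KCl and none fell, of 3716 tested (0.402% of all 5′ UTR segments called, 227 upstream exons with an unadjusted p under 0.05, edgeR's quasi-likelihood test). They were Atf3 and Nr4a2 from the list of immediate early genes, Maff, Tiparp, Sik1, Sertad1, Dusp14, Arl4d, Elmsan1, Rsrp1, Trim66 and Slc7a1. Those of Atf3, Sertad1, Sik1 and Slc7a1 end within 30 nt of the start codon, as do 1361 of the 3716 tested. In 11 of the 12 the CDS of the gene was also called higher. The exception was exon 2 of Slc7a1, the cationic amino acid transporter, which rose by 1.55 log2 units while its CDS had 0.84 (edgeR adjusted p = 0.0626). The difference between the gene's upstream counts and its CDS was not called (log2 0.73, SE 0.439, edgeR adjusted p = 0.577). Trim66 and Slc7a1 are named here after their values were seen.

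Exon 1 of Atf3 (chr1:191183093-191183340), a transcription factor of the ATF/CREB family, gave the largest gain. Its densities were 9.59, 46.2 and 33.5 in resting TurboID-PSD95 inputs and 220, 235 and 194 in depolarized ones. In Pan-TurboID inputs they were 16.8, 9.76 and 26.8 at rest and 99.5, 144 and 177 after KCl. All 6 depolarized inputs lay above all 6 resting ones, and the gain was 7.76-fold (log2 2.96, SE 0.466, edgeR adjusted p = 8.16e-06), beside 3.21 log2 units for its CDS. This exon ends 4 nt before the start codon, so that ribosomes on the first codons of Atf3 can be among its counts.

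Exon 1 of Tiparp (chr3:65528410-65528632), a mono-ADP-ribosyltransferase, rose from 76.4, 155 and 140 to 397, 779 and 512 in TurboID-PSD95 inputs. In Pan-TurboID inputs it rose from 88.4, 140 and 133 to 238, 509 and 536, and over both baits by 4.07-fold (log2 2.02, SE 0.376, edgeR adjusted p = 0.000398). It ends 41 nt before the start codon and overlaps another gene. Exon 1 of Rsrp1 (chr4:134923592-134923767) rose from 148, 208 and 182 to 651, 739 and 660 and, with Pan-TurboID, from 187, 292 and 242 to 383, 628 and 833, which was 3.17-fold (log2 1.66, SE 0.347, edgeR adjusted p = 0.00289). Both exons kept all depolarized inputs above all resting inputs.

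Exon 1 of Nr4a2 (chr2:57114718-57115038), an orphan nuclear receptor of the immediate early class, rose 2.99-fold (log2 1.58, SE 0.382, edgeR adjusted p = 0.023) with overlapping groups. Its resting TurboID-PSD95 inputs had 82.5, 197 and 290 and the depolarized ones 662, 664 and 785. Its resting Pan-TurboID inputs had 113, 145 and 395 and the depolarized ones 276, 538 and 722, so that the overlap came from the Pan-TurboID libraries. The CDS of Nr4a2 rose by 0.79.

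The remaining exons rose between 2.93 and 4.15 times. Dusp14 gained 2.05 log2 units (SE 0.412, edgeR adjusted p = 0.00171), Elmsan1 2.04 (adjusted p = 0.000392) and Sertad1, a transcriptional co-regulator, 2.01 (adjusted p = 0.00344). Maff gained 1.67 (adjusted p = 0.00795), Sik1, a salt-inducible kinase, 1.61 (adjusted p = 0.0199), Arl4d 1.72 (adjusted p = 0.0331) and Trim66 1.91 (adjusted p = 0.04). Of the 12 exons, 4 also passed in the dendritic pulldown (Dusp14, Elmsan1, Arl4d and Maff), and all 12 had a change above 0 there, as had 81.0% of all upstream exons tested. These pulldowns and inputs come from the same cultures. Leaving out replicate 3 left the exon of Atf3 alone, leaving out replicate 2 left 9 exons, leaving out replicate 1 gave 24 and leaving out replicate 2 of the depolarized TurboID-PSD95 pulldowns, which enters the shared estimate of the spread, gave 19. With same-numbered libraries as a block, 44 passed.

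The share of upstream counts in the inputs was 1.19 times higher after KCl, which did not pass an exact permutation test of 6 against 6 libraries (p = 0.136, adjusted p = 0.341). By bait it was 1.33 times with TurboID-PSD95 (exact permutation p = 0.1, the smallest that 3 against 3 allow) and 1.07 times with Pan-TurboID (exact permutation p = 0.7). Flipped within replicate numbers as a block, the same 1.19 gave an exact permutation p of 0.0370. Relative to segments that abut the CDS, upstream exons were 1.01 times as frequent after KCl as at rest (exact permutation p = 0.684, 6 against 6). Sums over 2 of the 5 marker lists had lower ranges after KCl in the inputs. Over the 10 markers of the oligodendrocyte lineage the CDS total was 281 to 659 counts per 1000000 CDS counts (CPM) at rest and 183 to 458 after KCl, and over the 9 vascular markers 220 to 364 and 106 to 296. Astrocyte markers held 678 to 1275 CPM at rest and 742 to 1405 after KCl, and neuron markers 11265 to 11890 and 9858 to 13437. Over the 38 libraries neuron markers held 6468 to 13437 and microglia markers 0 to 25.7 CPM, with 7 of 9 microglia markers under 1 CPM on average. In TurboID-PSD95 pulldowns neuron markers held 9329 to 9942 CPM at rest and 7884 to 9071 after KCl, without overlap, markers of the oligodendrocyte lineage 173 to 547 and 155 to 243, and vascular markers 103 to 206 and 102 to 146. Their part in these results was not tested.

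With Pan-TurboID, the pulldown that has no localization signal, 2 upstream exons rose with KCl and none fell (0.105% of all segments called), and 184 had an unadjusted p under 0.05. Exon 1 of Atf3 went from 0.479, 8.27 and 7.43 to 24.1, 62.9 and 89.1, or 11.1-fold (log2 3.47, SE 0.702, edgeR adjusted p = 0.00373). Exon 1 of Tiparp went from 25.1, 26.6 and 32.1 to 59.2, 184 and 219, or 5.60-fold (edgeR adjusted p = 0.0163). Both kept the groups apart. Without replicate 2 or replicate 3 no exon passed, without replicate 1 there were 15, and with same-numbered libraries as a block 13. In TurboID-PSD95 pulldowns the exon of Atf3 had 6.76, 18.5 and 17.7 at rest and 1.96, 101 and 47.7 after KCl, where replicate 1 lay below all resting pulldowns and the exon was not called.

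**Figure D4:**
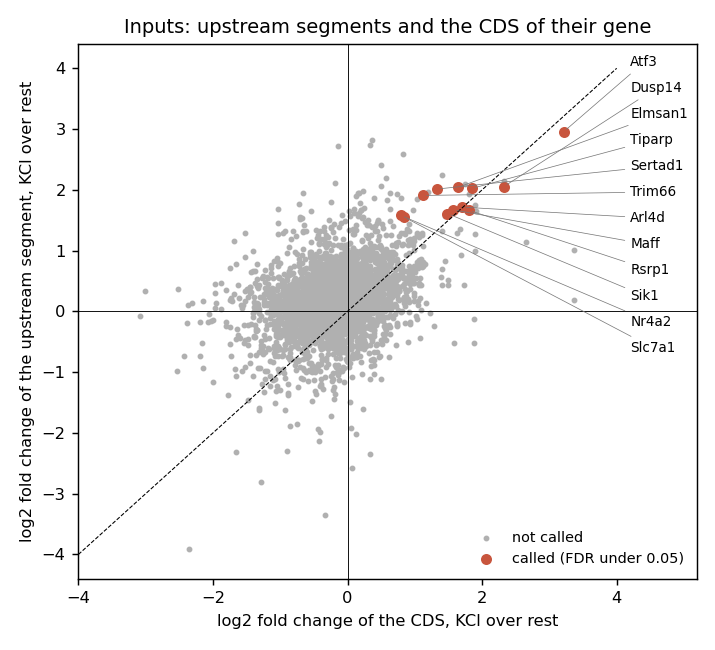
KCl response in inputs, as log2 fold change of an upstream exon (vertical axis) against that of the CDS of its gene (horizontal axis), for the upstream exons tested with a tested CDS. The 12 exons that rose are labelled. In 11 of them the CDS was called higher as well, with Atf3 the farthest at 3.21 for the CDS and 2.96 for the exon. The CDS of Slc7a1, at 0.84, was not called.

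Where the CDS of a gene had risen with KCl in the inputs, the upstream exons had a median change of 0.67 (196 exons), and where it had fallen 0.10 (546 exons), beside 0.21 over all upstream exons. The difference between a gene's upstream exons and its CDS was therefore tested in 1 edgeR model over both counts. In inputs, the upstream exons of 33 of 3200 genes rose relative to the CDS and those of 1 fell (1.03% and 0.0312% of genes tested, 1.06% in all). Over all 3200 genes this relative change had a median of 0.32 and lay above 0 for 73.6%, so most genes shared its direction. In 31 of the 33 genes the CDS itself was called lower, beside 444 of the 3171 CDSs of genes with a tested upstream exon. Over the 33 genes the CDS had a median change of -1.45, and the upstream exons one of 0.39, from -0.34 to 1.28. These 33 genes were picked by this very difference on the same counts, which favours a low CDS and a raised upstream value.

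Apba1, which encodes the synaptic adaptor Mint1, is such a gene. Its upstream exons held 10.6%, 11.3% and 11.8% of the gene's upstream and CDS counts in resting TurboID-PSD95 inputs, and 59.0%, 52.1% and 56.0% in depolarized ones. In Pan-TurboID inputs the share went from 12.1%, 15.1% and 13.7% to 27.1%, 47.2% and 60.5%. Every depolarized input lay above every resting one, and the relative gain was 2.85 log2 units (edgeR adjusted p = 0.000221), with a CDS change of -2.51. Its upstream counts per 1000000 CDS counts were 44.7 ± 7.31 at rest and 68.5 ± 12.6 after KCl in TurboID-PSD95 inputs (SD, n = 3), and its CDS counts 352 ± 43.3 and 55.8 ± 18.2.

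Epn1, an epsin adaptor of endocytosis, went from 27.8%, 29.4% and 26.5% to 68.7%, 65.7% and 68.4% in TurboID-PSD95 inputs. With Pan-TurboID it went from 31.1%, 31.6% and 29.6% to 64.1%, 69.0% and 65.4%, a relative gain of 2.29 log2 units (edgeR adjusted p = 6.11e-05) with a CDS change of -1.88. The values of the 2 baits nearly coincided. Dlgap3, a scaffold of the postsynaptic density, went from 25.5%, 26.1% and 16.6% to 76.1%, 67.7% and 58.6% in TurboID-PSD95 inputs, a relative gain of 2.46 (edgeR adjusted p = 0.00735) with a CDS change of -1.66.

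Nr4a1, another orphan nuclear receptor of the immediate early class, was the gene whose upstream exons fell relative to the CDS. Its upstream share in TurboID-PSD95 inputs went from 3.33%, 12.2% and 4.35% to 0.501%, 1.30% and 0.908%. The CDS rose by 3.36 log2 units, upstream counts per 1000000 CDS counts were 7.46 ± 4.51 at rest and 10.2 ± 4.47 after KCl (SD, n = 3), and the relative change was -2.97 (edgeR adjusted p = 6.11e-05). The 34 genes became 0 without replicate 3 and 4 without replicate 2, and 84 with same-numbered libraries as a block.

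In dendritic pulldowns the same model gave 3 genes, 2 higher and 1 lower (0.0625% and 0.0312% of genes tested, 0.0938% in all). Over all genes tested there, the relative change had a median of 0.66 and lay above 0 for 79.0%. This median was 0.12 without replicate 2 of the depolarized TurboID-PSD95 pulldowns. Upstream exons gained relative to the CDS in Sema6b, a semaphorin, by 3.45 log2 units, from 2.20%, 0.876% and 3.28% to 10.9%, 23.2% and 20.1% of the gene's counts, while its CDS changed by -1.24. The same held for Arvcf, an armadillo protein of cell junctions, by 2.64, from 3.73%, 3.16% and 6.22% to 17.7%, 27.0% and 19.5%. Nr4a1 again lost, by 3.39, with its CDS up by 3.74. Without replicate 2 of the depolarized TurboID-PSD95 pulldowns 1 gene was called, lower, and both gains were lost. Without replicate 3 no gene was called, without replicate 1 there were 72, and with the block 35.

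Knockdown of eIF4G2 was checked first by the CDS of Eif4g2. It had 284 and 284 CPM in resting knockdown inputs and 337 and 323 in depolarized ones, against 562, 565 and 582 in resting and 576, 538 and 772 in depolarized TurboID-PSD95 inputs without knockdown. The knockdown inputs were lower by 0.96 log2 units (SE 0.113, edgeR adjusted p = 1.67e-05 over 12902 genes). These libraries come from different experiments, so that knockdown and experiment cannot be told apart, and upstream exons were therefore compared within the knockdown libraries alone.

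In neurons with eIF4G2 knockdown, depolarization raised 67 of 2793 upstream exons in inputs and lowered none (2.46% of all 5′ UTR segments called, edgeR's quasi-likelihood test). Their gains ran from 0.80 to 4.87 log2 units with a median of 1.26, beside 0.52 over all upstream exons tested. Of the 67, 61 were exon 1. This share was not taken among the 2793 tested. It was 8162 of all 10882 upstream exons, many of them without counts, and 2267 of the 2714 that were lower in the DHPG pulldown. Within 30 nt of the start codon ended 24 of the 67, beside 1037 of the 2793 tested. An ATG was held by 39, beside 60.8% of those tested. Another gene was overlapped by 10, where 2414 of the 2793 tested overlapped none. In 31 the CDS rose and in 10 it fell, beside 210 higher and 439 lower of 2440 CDSs of genes with a tested upstream exon. The count depended on single libraries. Without either depolarized input it was 13 or 8 and without either resting input 7 or 6, whereas without a depolarized pulldown it was 163 and without a resting pulldown 259 or 261. The exons of Nr4a2, Nr4a3, Tiparp, Rsrp1 and Atf4 passed in each of these 8 fits, in which the group left with 1 library is assumed to vary like the others.

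Exon 1 of Nr4a2 gave the largest gain, from 16.4 and 16.6 in resting knockdown inputs to 433 and 529 in depolarized ones, 29.2-fold (log2 4.87, SE 0.287, edgeR adjusted p = 1.64e-09), while its CDS rose by 3.28. In knockdown pulldowns it went from 3.44 and 6.65 to 108 and 114, 23.8-fold (log2 4.57, edgeR adjusted p = 1.01e-06). Resting inputs without knockdown, from the KCl experiment, had 82.5 to 395 for this exon and DHPG inputs 19.8 to 24.6, values that come from different experiments and are set side by side only.

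Exon 1 of Tiparp went from 99.1 and 86.7 to 529 and 750 in knockdown inputs, 6.93-fold (log2 2.79, SE 0.260, edgeR adjusted p = 2.06e-06), and from 27.7 and 36.4 to 118 and 131 in knockdown pulldowns (log2 1.99, edgeR adjusted p = 0.0041). Exon 1 of Nr4a3 (chr4:48045153-48045716), the third receptor of this family, went from 158 and 190 to 563 and 624 in inputs, 3.44-fold (log2 1.78, SE 0.196, edgeR adjusted p = 1.64e-05), and from 78.6 and 58.3 to 163 and 147 in pulldowns (log2 1.17, edgeR adjusted p = 0.0116). In these genes both depolarized libraries lay above both resting ones in inputs and pulldowns. Rsrp1 went from 128 and 142 to 706 and 745 in inputs (log2 2.44, edgeR adjusted p = 6.37e-05), and Maff from 46.7 and 30.9 to 190 and 193 (log2 2.32, edgeR adjusted p = 0.00117). The call for Maff was lost without replicate 2 of the resting knockdown inputs (edgeR adjusted p = 0.11).

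In knockdown pulldowns, 5 upstream exons rose and 1 fell of 2793 tested (0.283% of all segments called higher, 0.0217% lower and 0.304% in all, 382 with an unadjusted p under 0.05), with a median of 0.08. Beside Nr4a2, Nr4a3 and Tiparp, exon 1 of the somatostatin receptor gene Sstr2 rose from 3.14 and 4.56 to 48.9 and 30.1 (edgeR adjusted p = 0.0133). Exon 1 of Atf5, a relative of Atf4 that overlaps another gene here, rose from 5.15 and 0 to 44.5 and 56.7 (edgeR adjusted p = 0.0239). Exon 1 of Atad1, an ATPase of mitochondria and synapses, fell from 26 and 28 counts to 1 and 0 (edgeR adjusted p = 0.0222). The calls of Sstr2, Atf5 and Atad1 were each lost in some fit that left out 1 library, those of Nr4a2, Nr4a3 and Tiparp in none, and 10 exons passed with same-numbered libraries as a block.

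All 12 upstream exons that rose with KCl in inputs without knockdown had a change above 0 in inputs with knockdown, as had 85.1% of all upstream exons tested there, and 6 of them passed, beside the 2.46% of all segments. Of the 67 exons that rose with knockdown, 66 had a change above 0 in inputs without it, as had 68.6% of all upstream exons tested there, and 6 passed. The experiments have 2 and 3 libraries per group and were fitted apart, so that the difference between their responses was not tested. The motif CGCGGC, which the study links to eIF4G2, was searched on the transcript strand and found in 23 (34.3%) of these 67 exons, in 28.9% of the 2793 tested with them and in 11.1% of all upstream exons. Of the exons that rose with KCl without knockdown, 3 of 12 in inputs and 3 of 6 in dendritic pulldowns held it, beside 26.2% of those tested there. The 67 had a median length of 232 nt and a median GC content of 70.0%, the 2793 tested ones 194 nt and 66.6%, and longer exons held the motif more often, 2.94% of those under 100 nt and 28.3% of those of 400 nt or more.

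The uORF windows of Atf4 are printed above. Its exon 1 (chr15:80255184-80255685) ends 92 nt before the start codon and took 62.6% of the gene's upstream and CDS counts over the 38 libraries. In TurboID-PSD95 inputs the exon had densities of 266, 510 and 371 at rest and 846, 903 and 701 after KCl, and in Pan-TurboID inputs 374, 537 and 370 against 521, 806 and 784. The groups overlapped and the gain of 1.90-fold was not called (log2 0.93, SE 0.349, edgeR adjusted p = 0.538). It was called with same-numbered libraries as a block (log2 0.99, SE 0.234, edgeR adjusted p = 0.00689), and all 6 same-numbered pairs of inputs rose. In the fit without the block its CDS rose by 1.68 (edgeR adjusted p = 3.1e-05). The difference of -0.77 between exon and CDS was itself not called (SE 0.352, edgeR adjusted p = 0.419). With eIF4G2 knockdown, inputs went from 224 and 214 to 607 and 762 in the exon, 3.16-fold (log2 1.66, SE 0.184, edgeR adjusted p = 1.64e-05), and the CDS rose by 2.20.

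In pulldowns the exon of Atf4 had lower densities. Resting TurboID-PSD95 pulldowns had 82.4, 243 and 118 and depolarized ones 119, 521 and 267, with overlapping groups (log2 1.02, edgeR adjusted p = 0.352, and 0.0942 with the block) and a CDS gain of 1.97. Knockdown pulldowns went from 73.8 and 76.5 to 128 and 133 (log2 0.80, edgeR adjusted p = 0.0967) with a CDS gain of 2.47. DHPG inputs had 282, 261 and 272 and DHPG pulldowns 69.1, 77.6 and 97.7, which did not overlap.

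**Figure D5:**
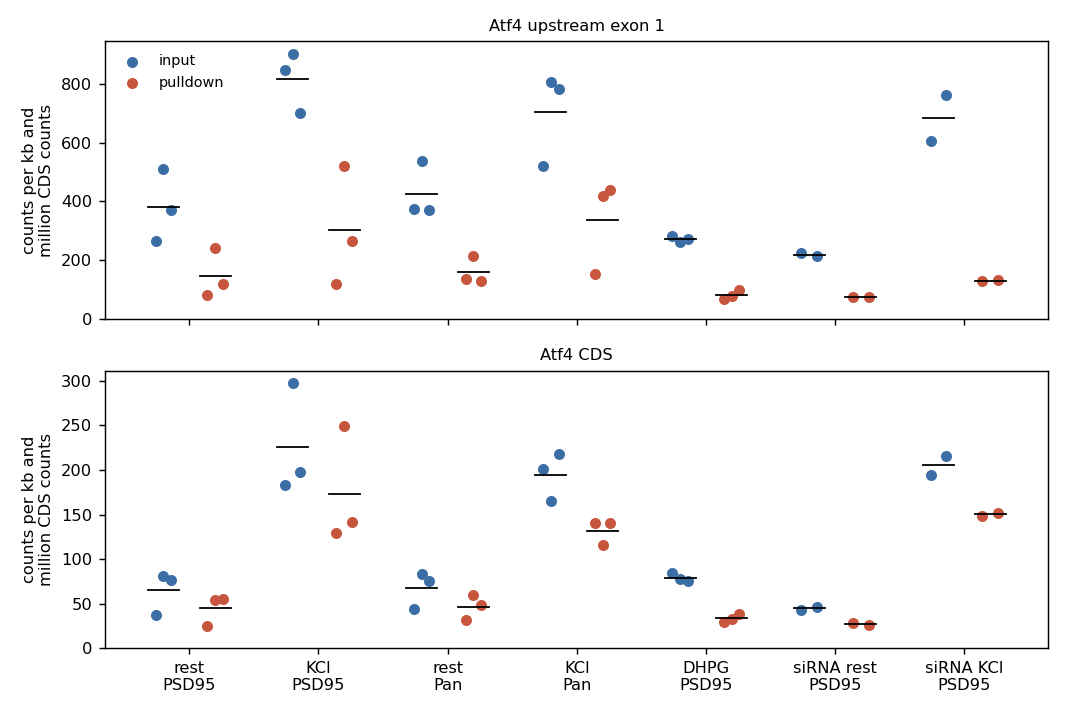
Density of Atf4 exon 1 and of the Atf4 CDS (counts per kilobase and per 1000000 CDS counts, linear axis) in each of the 38 libraries by group, where points are libraries. Exon densities run from 69.1 to 903 and are lower in pulldowns than in inputs of the same treatment and bait, and the knockdown inputs show the depolarized libraries (607 and 762) above the resting ones (224 and 214).

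Gene lists gave few calls with KCl, as did all 5′ UTR segments, of which 0.402% were called in inputs and 0.241% in the dendritic pulldown. Of 36 immediate early and activity genes, 9 had upstream exons and Bdnf had none among its longest transcript. Of their 13 tested exons, 2 rose with KCl in inputs (Atf3 and Nr4a2, median 0.66 beside 0.21 over all upstream exons) and 1 in the dendritic pulldown (Crem, median 1.46 beside 0.67). With knockdown, 3 of 8 rose in inputs (Nr4a2, Nr4a3 and Vgf, median 1.92 beside 0.52), where 2.46% of all segments were called. Of 20 genes of the integrated stress response or known for uORFs, 7 had 10 tested exons, none of which passed in inputs without the block (median 0.54) or in the dendritic pulldown (median 0.87), while 6 were lower in resting dendritic pulldowns than in inputs, beside 53.4% of all segments. Genes that the study names for upstream reading frames, which were chosen on these samples and are not independent evidence, had 17 tested exons. Of these, Atf3 alone rose in inputs (median 0.28), none in the dendritic pulldown (median 1.09), and 15 of 15 were lower in the DHPG pulldown, beside 94% of all segments (median -1.72 beside -1.44). Upstream exons of postsynaptic density proteins (20 tested), initiation factors (9 tested) and ribosomal proteins (19 tested) gave no call with KCl in inputs or dendritic pulldowns, with medians of 0.42, 0.33 and 0.28 in inputs and of 0.93, 1.27 and 0.70 in dendritic pulldowns, beside 0.21 and 0.67 over all upstream exons. With knockdown, Sipa1l1 of the postsynaptic list and Eif5 of the initiation factors rose in inputs. In knockdown pulldowns no exon of the study's, postsynaptic or initiation factor lists was called, with medians of -0.56, -0.25 and -0.45 beside 0.08 over all upstream exons. Above 0 were 3 of 11, 5 of 17 and 2 of 7, beside 54.0% of all upstream exons tested. The other lists went the other way, with medians of 0.37 (stress response, 7 of 10 above 0), 1.15 (immediate early, 6 of 8) and 0.39 (ribosomal proteins, 7 of 10). Of these, Atf5, Nr4a2 and Nr4a3 were called, beside 0.304% of all segments.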

How the data were processed

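PL-Ribo-seq counts of 38 libraries of mouse cortical neurons were analysed, from 3 files per library, which hold segments of CDSs, of 5′ UTRs and of 3′ UTRs. According to their methods, the authors trimmed reads with Rfastp, cut off molecular identifiers of 6 nt, kept reads over 20 nt, aligned them to mm10 with Rsubread and counted with plastid in UCSC known genes. Per the file headers, 5′ ends of alignments of 25 to 100 nt were counted without an offset, and the names of the alignment files mark removed rRNA and duplicates. Whether strand was used is not given in the sources used here, so exons that overlap another gene are uncertain. The counts that the authors deposited are whole numbers for each segment, not normalized, and the deposited RPKM values were not used. All sample columns in the files were mapped (0 unused).

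From each gene the longest coding transcript was used. The test for counts of all 5′ UTR segments was that of edgeR 4.0.16 under R 4.3.3 (quasi-likelihood, robust, filterByExpr with a minimum count of 10, library sizes and TMM factors taken from CDSs, FDR 0.05 over all segments), with 1 fit each for the KCl (24 libraries), DHPG (6) and knockdown (8) experiments. The same tool tested upstream against CDS counts per gene, with the library as a block. Shares used exact permutation tests on 1 value per library. DESeq2 1.42.0 and edgeR's likelihood ratio test, which the study names, were alternatives, and the code was tested on simulated data. Upstream frames were read from the mm10 genome with Python 3.11.15.

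Groups and replicate numbers came from the labels. Pairing follows the methods: input and pulldown share a monosome fraction, of which 10% was input, and all resting and activated samples of a replicate were processed together. Deviations of same-numbered libraries correlated by 0.059 on average in the KCl experiment (15 of 84 pairs over 0.1). P-values of the fits measure the spread between libraries within groups. Without the replicate block, the fits link neither input and pulldown of a culture nor same-numbered libraries. Sign-flip tests use the differences within pairs of input and pulldown. Counts of a member differed between replicates by more than counting noise, with a chi-square per exon of 1.58 to 7.45. Library totals were 5906281 to 35643247.

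Exons named are, per direction, up to 10 with the smallest p in the KCl pulldowns and inputs and up to 3 in other comparisons, among those called with replicates moving the same way, the 15 densest and 5 most counted, those of the uORF lists with a mean count of at least 3, Atf4 and Bdnf, and those with the largest share of their gene's counts. An exon that meets this rule is not reported here. Members, lists and rules were chosen with earlier results of these data known. Single knockdown libraries and replicate 2 of the depolarized TurboID-PSD95 pulldowns were left out, and abutting and 3′ UTR shares added, after seeing the data. For DHPG inputs and knockdown libraries the label text names the cytosol and the lentivirus entry PSD95-TurboID, and the entry was followed. Libraries with another siRNA were not analysed here.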

Additional observations from a re-analysis of the deposited data

Results flagged for a closer look

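Of 22 groups of 6 libraries tested for a sample far from the others, exon 1 of Elmsan1 in resting inputs had one: replicate 2 of the TurboID-PSD95 inputs had a density of 46.1, and the other resting inputs of both baits had 17.4 to 24.5. Chance alone marks about 1 group in 20. All 6 depolarized inputs, at 74.3 to 146, lay above it.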

How the results depend on the processing

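Of 199 alternative values of the main results, 131 were the same, 65 moved, 2 became stronger and 1 reversed, and of 5038 alternative values for named exons 4472 were the same, 556 weaker, 10 stronger and none reversed. With DESeq2 the counts of upstream exons called were 76 (KCl, dendritic pulldown), 29 (inputs), 9 (Pan pulldown), 1109 (depolarized dendritic pulldown against inputs), 115 (knockdown inputs) and 16 (knockdown pulldowns). With edgeR's likelihood ratio test they were 57, 23, 843 (depolarized dendritic pulldown against inputs), 188 and 162 for knockdown inputs and pulldowns, and 96 and 104 genes for upstream relative to CDS in dendritic pulldowns and inputs. With the replicate block they were 56, 44, 13 and 1434, 10 in knockdown pulldowns, and 35 and 84 genes. The block also gave the share in inputs (log2 0.25) an exact permutation p of 0.0370 and left the knockdown inputs at 68, and it changed no other call of the main counts by over 1.5 times. Without a filter on low counts there were 3 (depolarized pulldown against inputs), 22 (knockdown pulldowns) and 7 genes (relative to CDS, dendritic pulldown). RLE factors gave 374 and the transcript with the most CDS counts 247 for the depolarized pulldown against inputs. Without exons under 30 nt from the start codon, counts were 80 for that comparison, 1172 at rest, 1476 with Pan, 1722 with DHPG, 43 in knockdown inputs and 1 with KCl in the Pan pulldown. Without exons that overlap another gene the Pan pulldown had 1.

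Leaving out replicates gave 0 to 93 (KCl, dendritic pulldown), 1 to 24 (inputs), 0 to 15 (Pan), 0 to 1749 (depolarized pulldown against inputs), 0 to 2050 (resting), 0 to 2545 (Pan against inputs), 2601 to 2792 (DHPG), 6 to 261 and 4 to 49 (knockdown inputs and pulldowns), and 0 to 72 and 0 to 47 genes relative to the CDS. The KCl share changed by 0.23 to 0.29 log2 units in inputs and by -0.12 to 0.59 in Pan pulldowns, where it reversed without replicate 3 (exact permutation p = 1). Leaving out a whole replicate number in the knockdown was not run, since 4 libraries in 4 groups have no residual degrees of freedom. Many exons had few counts, and 4430 had none in any library. The causes were not tested.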

Other observations

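A few upstream exons had higher levels in pulldowns than in inputs. In DHPG-treated neurons, exon 1 of Trim39, a ubiquitin ligase, had densities of 3.93, 2.69 and 2.10 in inputs and 17.5, 12.7 and 20.3 in pulldowns (log2 2.69, edgeR adjusted p = 1.93e-07), and exon 4 of Plagl1, an imprinted zinc-finger gene, was higher by 2.34 (edgeR adjusted p = 3.37e-05). Exon 2 of Plcb4, a phospholipase C, was called higher in resting dendritic pulldowns (edgeR adjusted p = 0.038), but its counts were 8, 4 and 2 in resting TurboID-PSD95 inputs, 0, 0 and 1 in resting Pan-TurboID inputs and 1, 22 and 1 in the pulldowns, where replicate 2 stood alone.

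Genes of polyamine metabolism are known for uORFs. For Odc1, ornithine decarboxylase, upstream exons changed by 1.37 log2 units relative to the CDS with KCl in inputs (edgeR adjusted p = 0.167), and for Azin1, the antizyme inhibitor, by -0.67 (edgeR adjusted p = 0.522). Neither passed, and with same-numbered libraries as a block that of Odc1 passed (log2 1.35, edgeR adjusted p = 0.0262).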
